A study of Mus musculus with 3 samples.

Results

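The cells described here were microglia of the non-cycling, homeostatic kind, recovered by a CD45+ sort from mouse brains with glioblastoma. They were chosen from their own transcripts. A CD45+ cell with at least 500 UMIs (unique molecular identifiers, each standing for 1 captured mRNA), at least 500 genes and at most 20% mitochondrial UMIs was taken when P2ry12, Tmem119 and Gpr34 together had at least 5 UMIs and Mki67 and Top2a together had 0. It also had to hold at most 1 UMI of Cst7, Clec7a, Lpl, Itgax and Axl, genes of disease-associated microglia, and at most 2 UMIs of Mrc1, Cbr2 and Pf4, genes of border macrophages. Of 11218 CD45+ cells past the limits on UMIs, genes and mitochondrial share, 4724 met the rule, out of 11720 CD45+ cells and 20811 cells in all. The levels of these 13 genes in the chosen cells follow from the choice, and no cell type name here rests on anything but the rule and the markers given below.

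The mice carried a conditional wild-type human EGFR, constitutive loss of Cdkn2a and a conditional luciferase, on a mixed background of Balb/cJ, C57Bl/6J, FVBN/J, SJL and 129S4. Adults of both sexes were injected into the brain with a Cre lentivirus that also encoded the EGFR ligand TGFa, so the recombined cells were those the virus reached. The luciferase signal was used to follow tumor growth. The labels placed tumors at an early, a medium or a large stage, and large is called late here. All stages carried the same alleles and the same virus, and no tumor-free brain was analysed here. Each stage was 1 tumor sample by CD45 sort, encapsulated on inDrop droplets as 4 libraries over 3 sequencing runs. Cells were pooled from a pair of animals where they were few, the early stage included. The libraries of a stage are therefore technical repeats. The spread among them and the 95% intervals below cover counting and handling error only, no test between stages was possible, and every difference between stages is a difference between these samples.

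Microglia are the resident macrophages of the brain parenchyma. They depend on the CSF1 receptor and on TGF-beta signalling, which together with the transcription factor Sall1 uphold a program of surface receptors that includes the purine receptor P2ry12. In disease they can lower that program, raise lysosomal and lipid genes, and, under interferon gamma, present antigen on MHC class II through the transactivator Ciita.

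The chosen cells came from 3377 early, 595 medium and 752 late cells, with 7127964, 1159465 and 1567166 UMIs in all and medians of 1998, 1803 and 1904.5 UMIs per cell. Late libraries 1 and 2, both of run 1, held 2 and 10 of the chosen cells, so the late levels per library are given for libraries 3 and 4 only. Early library 1 and medium library 1, on which the run 1 values rest, held 86 each. Early library 1 stood apart by transcripts of other cells: the neutrophil gene S100a9 reached 3720 CPM (UMIs of a gene per 1000000 UMIs) in its chosen cells against 23.6 to 57.2 in the other early libraries. S100a9 was also high in medium libraries 3 and 4 (2605 and 888 CPM) and late library 3 (705). Over whole marker lists, the summed levels by stage were 580, 2071 and 1111 for 12 neutrophil genes (7 of 10 tested called higher, meaning 2-fold or more, at the medium and 6 of 9 at the late stage), 330, 694 and 486 for 14 monocyte genes (5 of 10 and 1 of 10), 131, 189 and 147 for 15 T and NK cell genes (3 of 10 and 1 of 11) and 346, 161 and 176 for 12 oligodendrocyte genes (7 of 10 called lower at the medium and 6 of 10 at the late stage), where 2.97% and 3.23% of all genes were called higher and 6.98% and 3.41% lower. Of 5 endothelial genes tested, 1 was higher at the medium and 2 at the late stage, and all 3 erythroid genes tested were lower at both, with 0 UMIs there. Of 5 dendritic cell genes tested, 2 were called higher at the medium stage and 1 lower at the late stage, and that list summed to 2485, 2397 and 2686. The 9 genes of the B cell list summed to 590, 1115 and 424, with 2 of 5 tested called higher at the medium stage and 3 of 5 lower at the late stage (medians 0.21 and -1.25). Medium library 3 held 3325 against 482 to 588 in the other medium libraries. Igkc, the immunoglobulin kappa constant gene, was at 170, 576 and 11.5, Pax5, which specifies B cells, had 0 UMIs at every stage, and Cd79a, of the B cell receptor, had 0, 4 and 0 UMIs. Their part in the differences below was not tested, except that main counts are given without the libraries richest in neutrophil transcripts, medium library 3 among them. The early sample expressed the female transcript Xist at 318 CPM against 3.45 and 1.28 in the medium and late samples, and the Y-linked Ddx3y at 44.3, 116 and 107, so the sexes of the animals differed between stages and cannot be told apart from stage. Of 10393 distinct barcodes, 692 occurred in more than 1 CD45+ library, 223 of them within a run, and 136 of the chosen cells carried a barcode also found in another CD45+ library of their run.

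The share of CD45+ cells that met the rule was highest in the early sample and lowest in the medium one. It was 66.1% (exact binomial 95% interval 64.8 to 67.4, 3377 of 5110 cells) at the early stage, 14.9% (13.8 to 16.1, 595 of 3988) at the medium stage and 35.5% (33.4 to 37.6, 752 of 2120) at the late stage. The 4 early libraries held 60.1%, 70.0%, 69.3% and 60.1%. The 4 medium libraries held 12.5%, 16.3%, 15.0% and 14.5%, all below every early library. Late libraries 3 and 4 held 34.8% and 38.4%, between the other stages, while the 2 small late libraries of run 1 held 11.8% of 17 cells and 10.99% of 91 cells, inside the interval of the medium library of the same run. Cells with at least 5 marker UMIs, whatever else they expressed, numbered 3648, 791 and 911. Of these, 5.37%, 20.2% and 14.1% held 2 or more UMIs of the disease-associated genes and 1.84%, 6.95% and 5.05% held a cycling UMI, so the rule kept 92.6%, 75.2% and 82.5%. A share of sorted cells also depends on how many other leukocytes were in the brain and on recovery in the sort.

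**Figure D1:**
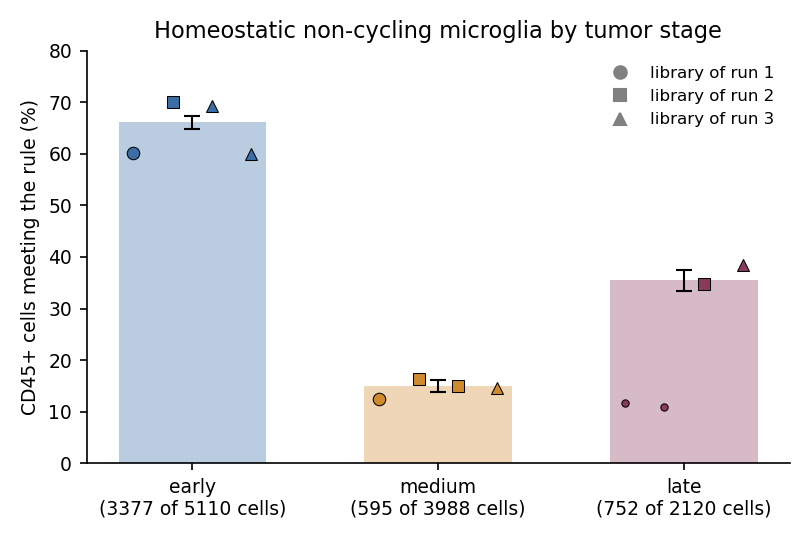
Share of CD45+ cells that met the rule (percent, vertical axis) at each stage. Bars are all libraries of a stage together with exact binomial 95% intervals (66.1%, 14.9% and 35.5%), points are libraries, point shapes are sequencing runs, and small points are libraries with under 50 chosen cells, which at the late stage lie at 11.8% and 10.99%.

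Cells lay on both sides of each threshold. Just outside the marker threshold, at 4 UMIs, lay 188 early, 61 medium and 47 late cells that met every other rule, and just inside, at 5 UMIs, lay 194, 70 and 47. At the other threshold, 274, 65 and 85 chosen cells held 1 disease-associated UMI, and 78, 36 and 28 cells were left out at 2. Just outside the marker threshold Sall1 was at 184 CPM early, 90.0 medium and 167 late, against 175, 134 and 94.5 just inside. Apoe was at 3938, 6735 and 9946 just outside and at 3402, 3209 and 4677 just inside.

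Genes that the rule did not use went with the label of microglia. Levels here and below are summed levels, the UMIs of a gene over all UMIs of the chosen cells of a stage or library, in CPM. Sall1, the transcription factor that marks microglia among brain macrophages, was at 195, 215, 203 and 232 in the early libraries, 147, 219, 169 and 238 in the medium libraries and 254 and 288 in the late libraries. The stages overlapped between early and medium, and both late libraries were above all others. In the other CD45+ cells Sall1 was at 77.7, 28.2 and 51.8, and in T cell marker cells it had 0 UMIs at every stage. T cell marker cells here are those with at least 3 UMIs of Cd3e, Cd3d, Cd3g and Trac and at most 1 UMI of P2ry12, Tmem119 and Gpr34, so a low level of microglial transcripts in them follows in part from that limit. Siglech, a microglial lectin, was at 1608, 1615 and 1774 in the chosen cells, and at 647, 229 and 305 in the other CD45+ cells. Csf1r, the receptor for the survival factor CSF1, was at 5613, 5543 and 5327, and Cx3cr1, the fractalkine receptor, at 6011, 5297 and 6331. The stages lay close to each other in all these receptors.

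For the comparison between stages, the ratio of summed levels was taken gene by gene with 0.5 UMIs added on average, shared between the stages in proportion to their total UMIs, over genes with at least 30 UMIs in the 2 stages together, and a gene was called when it differed by 2-fold or more. Of 12305 genes tested between medium and early, 365 were called higher (2.97%) and 859 lower (6.98%). With 1 library left out, these medium counts were 293 to 400 and 616 to 1265. Without early library 1 and medium libraries 3 and 4, 1330 were lower. Of 12508 genes tested between late and early, 404 were called higher (3.23%) and 426 lower (3.41%). The late count of lower genes was 1175 without late library 4 and 680 without late library 3. The median log2 ratio over all tested genes was -0.06 and 0.08. TMM scaling, which centres on genes that differ little, moved every late log2 ratio by -0.14 and turned the late split into 258 higher and 591 lower. These calls carry no p-value. Many rest on few UMIs, since a gene with 30 UMIs over both stages averages 4.2 UMIs in the medium sample and 5.41 in the late one: with at least 100 UMIs, 113 genes were higher and 227 lower at the medium stage, and 95 were higher and 113 lower at the late stage. The counts of the gene groups below stand against these percentages.

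The microglial list with the highest median ratio of medium over early was MHC class II, the molecules that present peptides to CD4+ T cells. The list summed to 8850, 27640 and 6242 CPM by stage, against 2473, 19838 and 558 for Cd74, H2-Aa, H2-Ab1 and H2-Eb1 alone. Its early and late sums thus came mostly from other genes. Of 13 tested genes of the class II list, 9 were called higher and 0 lower at the medium stage, where 2.97% of all genes were called higher, and the list's median log2 ratio was 2.11 against -0.06 for all genes. At the late stage 0 were called higher and 6 lower, where 3.41% of all genes were called lower, with a median of -0.87. The medium median was 2.25, 2.18 and 1.95 in runs 1, 2 and 3 taken singly, and the late median was -1.01 and -1.25 in runs 2 and 3. Without early library 1 and medium libraries 3 and 4, which held the most neutrophil transcripts, 9 genes were still called higher with a median of 2.16. All 6 genes called lower at the late stage were over 5 times higher in the other CD45+ cells than in the chosen cells at the early or the late stage, and with such genes left out the late count was 0 and the late median -0.55. A low late level can itself take a gene past this limit, so the count of 0 follows in part from the filter and decides nothing.

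The promoters of class II genes are known to share a set of short boxes read by the RFX, CREB and NF-Y factors that Ciita joins. The upstream 250 bases of the class II genes H2-Aa and H2-Eb1 and of the class I gene H2-D1 are shown. They were picked as examples with a match to the motif below, from genes that differed between stages and lie in 1 locus. They come from RefSeq on GRCm38.p6, 5' to 3' in the direction of the gene, at chr17:34287824-34288073 (minus strand), chr17:34305617-34305866 (plus strand) and chr17:35262844-35263093 (plus strand), each ending at the base before the annotated start. Capitals mark the letters of the class II Y box, the NF-Y motif CTGATTGG, or its reverse complement CCAATCAG. Whether the match in H2-D1 is the Y box of that gene was not tested. H2-K1, H2-DMa and H2-DMb1 of the same locus were also higher at the medium stage, had no match in these bases and are not shown.
H2-Aa: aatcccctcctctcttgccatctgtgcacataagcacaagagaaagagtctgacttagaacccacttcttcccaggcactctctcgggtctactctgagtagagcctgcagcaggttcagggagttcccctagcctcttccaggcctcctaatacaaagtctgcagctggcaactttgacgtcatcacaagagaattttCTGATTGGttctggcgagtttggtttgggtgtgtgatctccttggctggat
H2-Eb1: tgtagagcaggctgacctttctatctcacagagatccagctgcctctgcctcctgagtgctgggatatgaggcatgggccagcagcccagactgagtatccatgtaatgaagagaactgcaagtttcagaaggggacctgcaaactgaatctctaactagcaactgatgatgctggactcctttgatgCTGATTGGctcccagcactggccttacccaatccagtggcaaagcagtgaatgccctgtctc
H2-D1: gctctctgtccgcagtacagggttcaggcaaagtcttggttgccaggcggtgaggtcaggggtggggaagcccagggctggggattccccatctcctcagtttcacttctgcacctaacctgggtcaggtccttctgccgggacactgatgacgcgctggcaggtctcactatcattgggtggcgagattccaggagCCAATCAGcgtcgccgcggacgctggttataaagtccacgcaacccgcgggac
The motif lay 51 to 44 bases upstream of the start in H2-Aa, 62 to 55 in H2-Eb1 and, on the reverse strand, 53 to 46 in H2-D1. Searched on both strands, this motif was found in 3.83% of 32851 promoters of this length. It was found in 3 of the 9 class II genes and 6 of the 17 class I genes of the lists that had a promoter in the table, and in 0 of 25 genes of the microglial identity list. The percentage counts promoters, and the list counts are genes with the motif in any of their promoters. Promoters of 1 chromosome were left out of the search. A match is a description of the letters and not evidence that a factor bound.

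Cd74, the invariant chain that escorts class II molecules, was at 1781, 1201, 1129 and 1218 CPM in early libraries 1 to 4. It was at 10922, 7748, 7688 and 8214 in the medium libraries and at 307 and 291 in the late libraries. The stages did not overlap, with every medium library above every early one and both late libraries below, and the stage levels of 1204, 8287 and 296 gave 6.88-fold more in medium than in early cells (log2 2.78, 95% counting interval 2.74 to 2.83) and a log2 ratio of -2.02 (-2.16 to -1.89) at the late stage. H2-Aa, the class II A alpha chain, was at 1088, 582, 521 and 623 in the early libraries, 6850, 5501, 5786 and 5667 in the medium libraries and 114 and 113 in the late libraries. Its log2 ratios were 3.29 (3.23 to 3.34) and -2.39 (-2.62 to -2.17), again without overlap. H2-Eb1, the E beta chain, stood at 471, 4482 and 81.7, and H2-Ab1, the A beta chain, at 205, 1282 and 67.0. Ciita, the transactivator of the class II genes, was sparse. It was at 4.53, 7.52, 12.9 and 5.38 in the early libraries, 85.5, 107, 123 and 62.3 in the medium libraries and 2.85 and 0 in the late libraries, which is 11.8-fold more in medium cells (log2 3.54, 3.09 to 4.04). The peptide-loading genes moved with it: H2-DMb1 was at 56.5, 310 and 12.1, and H2-Oa, a brake on peptide exchange known mainly from B cells, at 29.3, 127 and 16.0. The H2 genes are near-identical in places, and reads could have been split between them. The mice were of a mixed background, and any difference in H2 alleles between the samples cannot be told apart from stage.

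**Figure D2:**
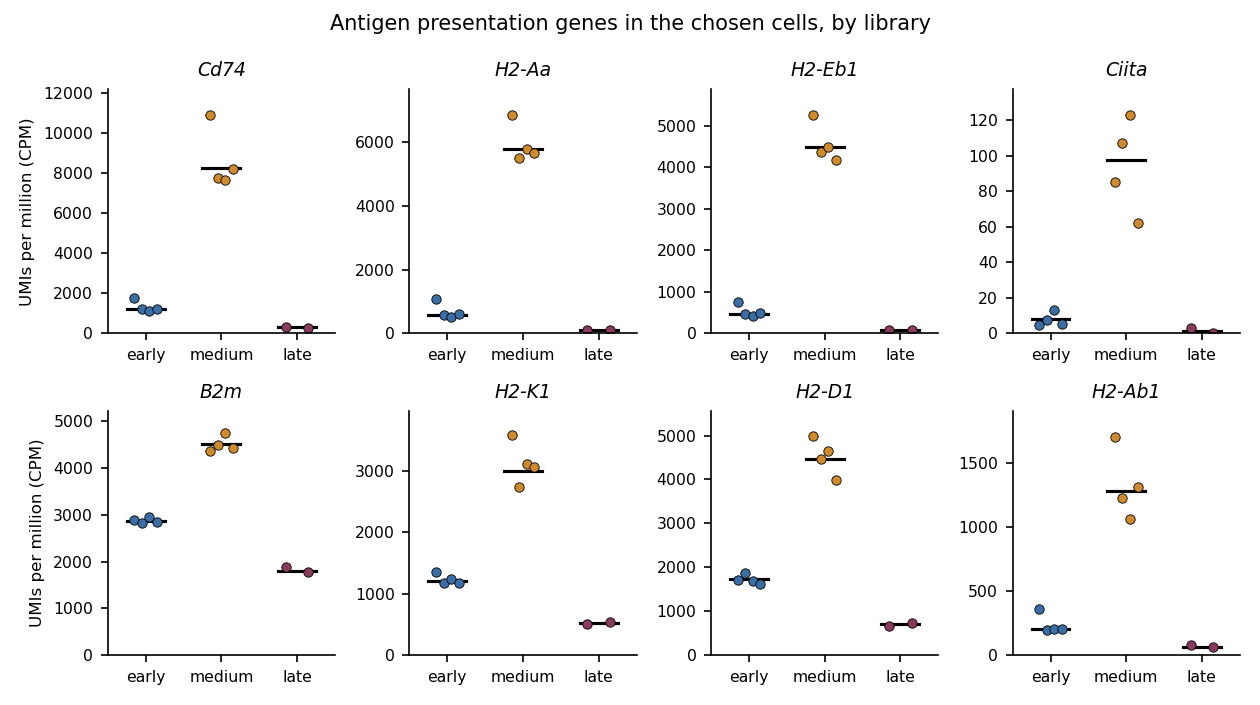
Levels of 8 antigen presentation genes (CPM, vertical axes, each with its own scale) in the chosen cells of each stage; points are libraries with at least 50 chosen cells and lines are the stage levels. For Cd74, H2-Aa, H2-Eb1 and Ciita all 4 medium libraries lie above all early libraries, and the 2 late libraries lie below; for Cd74 the stage levels are 1204, 8287 and 296.

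Class II transcripts were unevenly spread over the cells. With every cell thinned to 1000 UMIs, the summed UMIs of Cd74, H2-Aa, H2-Ab1 and H2-Eb1 had a median of 0 in early cells, 12 in medium cells and 0 in late cells. No such UMI was found in 70.0% of 3328 early, 23.5% of 595 medium and 76.0% of 721 late cells. At the other end, 20 or more were held by 124 early cells (3.73%), 221 medium cells (37.1%) and 2 late cells (0.277%). The medium sample was thus a mixture, with 12.9% of cells at 1 to 4 UMIs and 26.4% at 5 to 19. The early sample held a small fraction of cells as high as those of the medium sample. That fraction was larger in early T cell marker cells, 10 of 111 (9.01%), and the early high cells are not read as expressing class II.

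Free RNA can put such transcripts into droplets of cells that do not make them, so the same genes were read in other cells of the same libraries. The summed level of the 4 genes was 2473, 19838 and 558 CPM in the chosen cells. It was 14669, 28253 and 15681 in the other CD45+ cells, which include the main antigen-presenting cells. In 32, 230 and 15 cells with neutrophil markers, at least 20 UMIs of S100a8 and S100a9 under the same limit on microglial markers and with no T cell marker, it was 1096, 2179 and 2909. In 118, 158 and 57 cells with T cell markers it was 5576, 5558 and 622. At 1000 UMIs, 82.0%, 60.1% and 78.2% of the T cell marker cells held none of the 4 genes, and 9.01% of the early and 9.49% of the medium ones held 20 or more. The share of chosen cells with a class II UMI therefore exceeded that of both other cell kinds in the medium sample. In the late sample it was close to that of T cell marker cells, and this late level is not read as expression. For Cd74 alone the thinned shares with a UMI were 24.2%, 72.1% and 14.8% in the chosen cells and 11.7%, 31.0% and 10.9% in T cell marker cells, at median depths of 1998, 1803 and 1904.5 against 2021, 2054.5 and 2010 UMIs (31.4%, 75.5% and 21.1% of chosen cells and 11.9%, 39.2% and 10.5% of T cell marker cells before thinning). The part of free RNA in the levels of any stage was not tested. The 4 class II genes together were lower in medium chosen cells than in the other medium CD45+ cells. Singly, H2-Aa was at 5786 against 9748 and H2-Eb1 at 4482 against 7409. Some other genes, picked as examples, were higher in the medium chosen cells. H2-Oa was at 127 against 81.9, H2-Ob at 64.7 against 26.6, Ciita at 97.5 against 76.0, and Irf1, an interferon-induced transcription factor, at 315 against 107. Cells of the CD45- sort that met the same rule, 205, 48 and 30 of them, held 5242, 19516 and 103 CPM of the 4 class II genes, and all CD45- cells together 542, 1267 and 27.6.

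**Figure D3:**
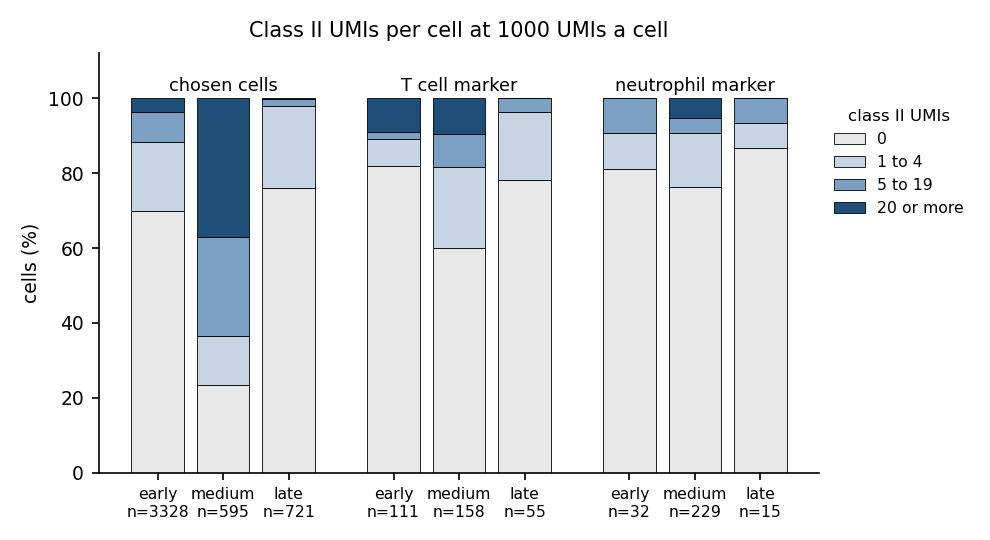
Shares of cells (percent, vertical axis) by the number of UMIs of Cd74, H2-Aa, H2-Ab1 and H2-Eb1 after thinning to 1000 UMIs, for the chosen cells, T cell marker cells and neutrophil marker cells of each stage. In the medium sample 37.1% of the chosen cells and 9.49% of T cell marker cells held 20 or more.

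MHC class I, which presents peptides to CD8+ T cells, moved the same way by less. Of 20 tested genes of the class I list, 9 were called higher and 0 lower at the medium stage (median log2 ratio 0.92), and 0 were higher and 4 lower at the late stage (median -0.60). With 1 library left out, the medium count was 6 to 10 and the late count 2 to 4. B2m, the light chain of class I, was at 2887, 2821, 2961 and 2847 in the early libraries, 4371, 4504, 4752 and 4436 in the medium libraries and 1878 and 1782 in the late libraries. These ranges were apart, with log2 ratios of 0.66 (0.61 to 0.70) and -0.67 (-0.72 to -0.61). The heavy chain H2-K1 was at 1201, 3005 and 529 by stage, and the heavy chain H2-D1 at 1743, 4474 and 701. Tap1, which carries peptides into the endoplasmic reticulum, was at 45.7, 120 and 23, and Psmb8, a subunit of the immunoproteasome, at 153, 317 and 97.0. The order of stages was the same in each of these genes, which were picked from the list. Over the list, 18 of 20 genes had a log2 ratio above 0 at the medium stage and 19 of 20 below 0 at the late stage. The exceptions were Calr and Pdia3 at 0.967 and 0.947 times early in medium cells. Tap2, the partner of Tap1, was at 1.14 times early in late cells. T cell marker cells of the same samples held 10355, 9560 and 6832 CPM of B2m, H2-K1 and H2-D1 together, against 5812, 12000 and 3038 in the chosen cells. In T cell marker cells these 3 genes were not higher at the medium than at the early stage, while their late level was the lowest in both.

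The interferon lists were high in the medium sample and divided in the late one. Of 19 tested genes of the interferon gamma list, mostly GTPases that act against intracellular microbes, 8 were called higher and 0 lower at the medium stage (median 0.89). That count was 3 after thinning to 1000 UMIs, 3 with a gene minimum of 100 UMIs and 2, 3 and 5 in runs 1, 2 and 3. At the late stage 0 of 16 were higher and 8 lower (median -1.21). Over these same genes the late median was -1.39 in run 2 and -0.89 in run 3. Counting only genes with at least 30 UMIs within the run, 4 were lower in run 2 (median -0.81) and 5 in run 3 (-0.60). Without early library 2, 5 were lower (-0.66), and with a gene minimum of 100 UMIs 3 were lower (-0.70). The median was -0.69 without early library 3, -0.80 without early library 4 and -0.76 without late library 3. Of 22 tested genes of the type I interferon list, 13 were higher and 0 lower at the medium stage (median 1.19), or 7 with a gene minimum of 100, 8 in run 2 and 6 in run 3, and 1 of 19, Rtp4, was higher and 0 lower at the late stage (median 0.02). Isg15, a ubiquitin-like protein induced by type I interferon, was at 25, 69.9 and 20.4, and Zbp1, a sensor of Z-form nucleic acids, at 6.31, 45.7 and 6.38. The 2 lists thus differed in the late sample, where Gbp2 (43.1 early, 6.38 late) and Gbp3, Gbp5, Iigp1, Tgtp1 and Tgtp2 were called lower and Isg15 and Zbp1 were not. Gbp, Tgtp and Ifi genes are families of close copies, and their single values are uncertain. Many of these genes were higher in the other CD45+ cells than in the chosen cells, and with genes over 5 times higher there left out, 6 type I genes and 5 interferon gamma genes were called higher at the medium stage. Without early library 1 and medium libraries 3 and 4 the counts were 12 and 7, and 8 for class I with a median of 0.72. The GAS motif TTCNNNGAA was found in 7.02% of all promoters of this length and in 7 of 13 interferon gamma genes with a promoter in the table. The interferon-stimulated response element (ISRE) was found in 2.98% of all promoters, 10 of 13 interferon gamma genes and 11 of 21 type I genes. The percentages count promoters, and the list counts are genes with the motif in any of their promoters. The lists are of interferon response genes, so these matches say nothing about the chosen cells.

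**Figure D4:**
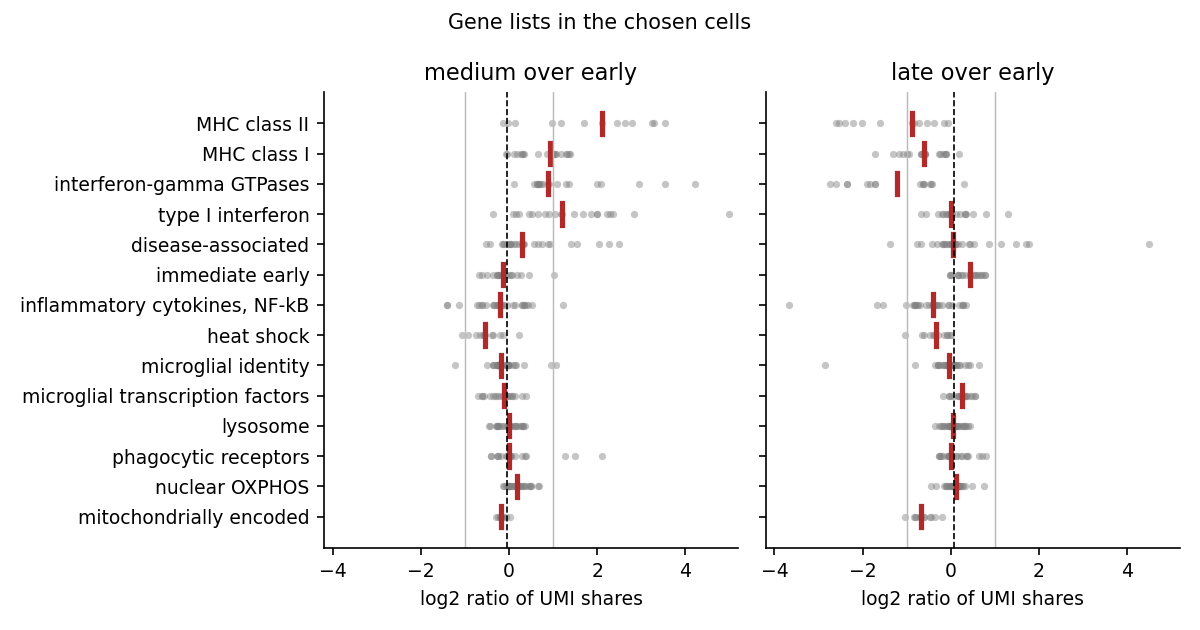
Log2 ratios of summed levels in the chosen cells, medium over early and late over early, for 14 gene lists (horizontal axis, log2, values beyond the axis drawn at its ends). Grey points are genes, red marks are list medians, the dashed line is the median of all tested genes and grey lines are 2-fold; the class II median is 2.11 at the medium stage and -0.87 at the late stage.

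Few genes of the homeostatic program were called, and their summed level was lower in the medium and late samples. Of 34 microglial identity genes outside the rule, 1 was called higher and 1 lower at the medium stage (median -0.18), and 0 were higher and 1 lower at the late stage (median -0.04), in cells that the rule had picked for related genes. At the medium stage 26 of 34 had a log2 ratio below 0, and 18 of 34 at the late stage. The list summed to 79717 to 82331 CPM in the early libraries, 69384 to 72739 in the medium libraries and 73196 to 76091 in the late libraries, without overlap. The list included receptors, adhesion proteins and lysosomal enzymes. The medium call was Fcrls, an Fc receptor-like scavenger protein, which was at 186, 174, 218 and 181 in the early libraries, 61.1, 109, 55.1 and 58.4 in the medium libraries and 161 and 155 in the late libraries. All 4 medium libraries lay below every other library (log2 -1.23, -1.55 to -0.93). The other calls were both Upk1b, at 5.33, 11.2 and 0.638, a level of few UMIs. Crybb1, a gene of early microglial maturation, was at 510, 434 and 292, a late log2 ratio of -0.80 (-0.95 to -0.66). Of 21 microglial transcription factors tested, 0 were called in either direction at either stage, and 17 of 21 had a log2 ratio above 0 at the late stage (median 0.25), or 16 of 21 with TMM scaling (median 0.11). Spi1, which specifies the myeloid lineage, was at 375, 366 and 445, and Mef2c, a brake on inflammatory responses, at 540, 364 and 479.

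Transcripts of cell activation pulled in opposite directions in the late sample. Immediate-early genes, the first to answer stimulation and also known to rise during warm enzymatic dissociation such as the collagenase step used here, gave a late median log2 ratio of 0.44, with 18 of 20 genes above 0 (17 with TMM scaling) but 0 called in either direction. Fos, a subunit of AP-1, was at 2791, 2780, 2570 and 2013 in the early libraries, 2631, 3365, 2762 and 2033 in the medium libraries and 4188 and 3984 in the late libraries. Both late libraries were above all others (log2 0.69, 0.65 to 0.73), and early and medium overlapped. Jun, its partner, stood at 1770, 1583 and 2765, Junb at 2773, 2844 and 4522, and Egr1 at 2035, 2121 and 3093. Atf3, of the same class, was flat at 981, 981 and 978. In the same late cells the inflammatory cytokine list had a median of -0.40, with 0 of 30 genes higher and 4 lower. Tnf was at 1668, 1100, 1009 and 872 in the early libraries, 1136, 1279, 957 and 954 in the medium libraries and 619 and 552 in the late libraries, below all others (log2 -0.81). Cd83, an activation marker, was also lowest at the late stage, at 3462, 2910 and 1963, and neither gene reached 2-fold. Il1b was level at 1251, 1593 and 1275, and the chemokine Ccl4 was at 3486, 4567 and 3035. The 4 late calls were Il6 at 9.40, 3.45 and 0.638, the neutrophil attractant Cxcl2 at 71.5, 60.4 and 22.3, Cxcl1 and the urokinase receptor Plaur. At the medium stage the list had 1 gene higher, Ccl12, a monocyte attractant (141, 330 and 171), and 3 lower, Il6, Ccl7 and Cxcl1 (median -0.21). Heat shock genes had medians of -0.55 and -0.33, with Hsph1 called lower at both stages. The part of dissociation in these levels was not tested.

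**Figure D5:**
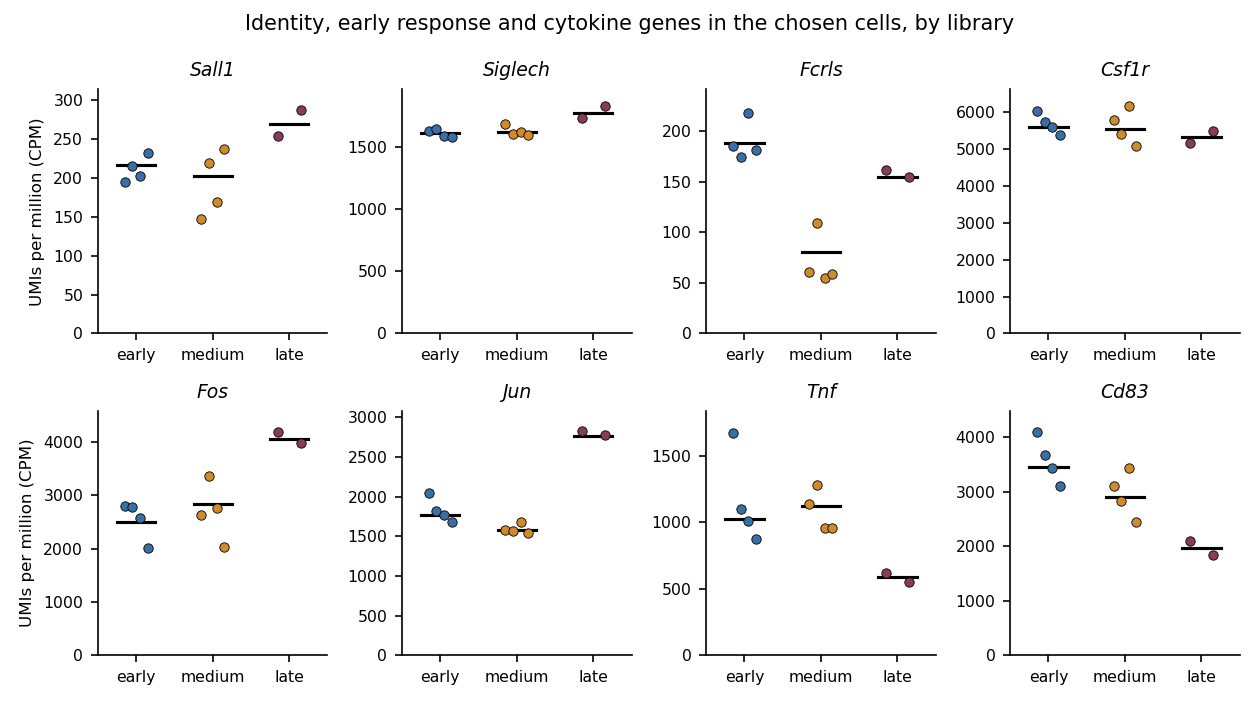
Levels of 8 genes of identity and activation (CPM, vertical axes, each with its own scale) in the chosen cells of each stage; points are libraries with at least 50 chosen cells and lines are the stage levels. Csf1r overlaps between stages and Siglech differs little, while Fos and Jun are highest and Tnf and Cd83 lowest in both late libraries.

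Transcripts encoded by the mitochondrial genome were lower in the late sample. All 13 tested had a log2 ratio below 0 (median -0.67), and 1, mt-Nd2 of respiratory complex I, was called lower at 3436, 2986 and 1662. mt-Cytb of complex III was at 6353, 5765, 6196 and 5082 in the early libraries, 5067, 5602, 4197 and 4834 in the medium libraries and 3485 and 2899 in the late libraries, both below all others. In T cell marker cells the same gene was at 3028 at the early and 1687 at the late stage. Nuclear genes of oxidative phosphorylation had medians of 0.19 and 0.13. The median mitochondrial share per cell was 4.60%, 3.93% and 2.88% in the chosen cells.

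The disease-associated genes that the rule did not use summed to 24224, 27734 and 23856 CPM in the chosen cells and to 30669, 40934 and 58754 in the other CD45+ cells, and a handful were called. Of 27 tested at the medium stage, 5 were higher and 0 lower (median 0.29): the galectin Lgals3 (4.77 early, 23.3 medium), its binding partner Lgals3bp, the matrix proteins Spp1 (6.31 and 36.2) and Fn1, and the fatty acid carrier Fabp5. That median was 0.14 to 0.35 with 1 library left out, lowest without medium library 2. It was also lower without genes over 5 times higher in other CD45+ cells. The part of free RNA in the levels of these called genes was not tested. Of 28 at the late stage, 5 were higher and 1 lower (median 0.06, and -0.078 with TMM scaling), with Lgals3, Spp1, Fn1 and Fabp5 called again and Igf1 added. For Igf1 the late T cell marker cells were too few to compare with, and the part of free RNA was not tested (values given with the named genes). Spp1 was at 12.2, 67.6, 16.9 and 7.79 in the medium libraries, so medium library 2 set that level. Apoe, which carries lipids and marks this program, was at 2066, 2266, 2257 and 1928 in the early libraries, 1948, 2721, 2474 and 1686 in the medium libraries and 4738 and 3328 in the late libraries. Early and medium overlapped, and the late log2 ratio of 0.87 (0.83 to 0.92) stood beside Apoe levels of 6406 early and 25387 late in the other CD45+ cells and of 797 and 7593 in T cell marker cells. The part of free Apoe RNA was not tested. Lists of lysosome, phagocytic receptor and Toll-like receptor genes had medians within 0.15 of 0 on the log2 scale at both stages, and Fcgr4 and Cd36 were the members called higher among phagocytic receptors at the medium stage. Genes of S and G2/M phase outside the rule were sparse, at 339, 408 and 405 CPM over 30 genes, with 3 of 21 called higher and 1, Tyms, lower at the medium stage. At the late stage 6 of 20 were higher, Tk1 and Ccnb1 among them, and 1, Mcm4, was lower.

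Among all genes, the 12 with the largest fitted ratio in each direction that had the same sign in every run were named. The 12 highest at the medium stage were Gbp2b, Ifi44, Serpina3f, AI506816, Cxcl9, C4b, Ciita, H2-Aa, Apobec3, H2-Eb1, H2-Ea-ps and Lilrb4a. Ifi44, an interferon-induced gene, was at 0.701 in early cells, 110 in medium cells and 0 in late cells, and the medium libraries held 104, 119, 152 and 58.4. Gbp2b had 0 UMIs in early cells and 56 in medium cells, at least 115-fold more against a floor of 3 UMIs over the early stage. Cxcl9, the interferon gamma-induced ligand of CXCR3, was at 140, 13.9, 21.2 and 3.89 in the medium libraries, so library 1 set its level. C4b, a complement C4 gene, was at 3.09, 39.7 and 5.74. Of these 12 genes, 11 were higher in the other medium CD45+ cells than in the chosen cells, and 8 were 2-fold or more higher at the medium stage there as well. AI506816 and Apobec3, a cytidine deaminase that restricts retroviruses, differed between stages most in cells outside the sort. AI506816 was at 4.49, 2247 and 17.8 in all CD45- cells against 11.1, 234 and 13.4 in the chosen cells, and Apobec3 at 6.31, 2252 and 19.3 against 26.0, 252 and 31.3.

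The 12 highest at the late stage were Igf1, Gpx3, Cxcl13, C3, Cp, Fpr2, Adora1, Psg16, Ranbp6, Onecut2, Mxra8 and Dtwd2. Igf1, an insulin-like growth factor, was at 0, 1.37, 0.517 and 0.489 in the early libraries, 0, 0, 4.24 and 0 in the medium libraries and 22.8 and 21.6 in the late libraries (log2 4.51, 3.42 to 6.23, from 6 and 34 UMIs). A UMI of Igf1 was found in 2.26% of late chosen cells (median depth 1904.5 UMIs). The share was 3.51% in late T cell marker cells (2010) and 6.67% in late neutrophil marker cells (1695). After thinning, such a UMI was found in 9 of 721, 1 of 55 and 1 of 15 of these cells. The marker cells were too few to compare these shares, and the part of free RNA in the late level of Igf1 was not tested. Cp, ceruloplasmin, a copper-carrying ferroxidase, was at 36.3, 37.9, 44.9 and 31.3 in the early libraries, 110, 103, 63.5 and 97.4 in the medium libraries and 258 and 212 in the late libraries. It was higher at each stage than at the one before, without overlap (log2 2.62, 2.39 to 2.85, late over early), and in T cell marker cells it was at 10.4, 7.44 and 12.7. Cxcl13, the chemokine that draws B cells, was at 27.2, 85.4, 151 and 79.2 in the early libraries, 708, 853, 881 and 502 in the medium libraries and 902 and 393 in the late libraries. It was 7.64-fold higher in medium and 7.13-fold higher in late cells, and its late libraries overlapped the medium ones. C3, the central complement component, was at 1.82, 7.76 and 12.8 in the chosen cells and at 79.4, 376 and 160 in neutrophil marker cells. Fpr2, a formyl peptide receptor, was at 2.67, 21.6 and 13.4 in the chosen cells and at 1017, 1250 and 1630 in neutrophil marker cells. The part of neutrophil transcripts in both was not tested. Gpx3, a secreted glutathione peroxidase, was at 2.67, 17.2 and 24.2 in the chosen cells and at 3.48, 4.96 and 76.1 in T cell marker cells. The part of free RNA in the level of Gpx3 was not tested. In the other CD45+ cells Igf1 was at 35.4, 36.0 and 354 and Cxcl13 at 488, 2034 and 1352. Cxcl13 was also at 6.96, 305 and 0 in T cell marker cells and at 0, 170 and 32.0 in neutrophil marker cells, high at the medium stage there too, and the part of free RNA in its medium level was not tested. Of the 12 genes, 8 were 2-fold or more higher at the late stage in the other CD45+ cells as well.

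Most named genes on the low side were transcripts of other brain cells or had 0 UMIs in the smaller sample. The 12 lowest at the medium stage included Ttr, Gpn3, Elavl3, Cdc42ep3, Magee1, Stmn4, Zc3h12b, Sez6l2, Fam84b, Atp8b1 and Peg3, and 11 of the 12 had 0 UMIs there. Gpn3, the highest of these in early cells at 68 UMIs, was at least 3.69-fold lower against a floor of 3 UMIs. Ttr, transthyretin of the choroid plexus, was at 3512 in early library 1 and between 19.6 and 100 in the other early libraries, against 0.862 in medium and 0 in late cells. The 12 lowest at the late stage were Ttr, Aplp1, Prkcq, Cmc4, Ppp1r14a, Slpi, Adm, Rrp12, Ifng, Tnfsf9, Enpp2 and Epb41l5, of which 9 had 0 UMIs. Aplp1, an amyloid precursor-like protein of neurons and oligodendrocytes, was at least 7.99-fold lower, and in all CD45- cells it was at 2218, 1722 and 1240. Tnfsf9, the ligand of the T cell receptor 4-1BB, was at 15.2, 10.3 and 0.638. Epb41l5, a cytoskeletal linker, was at 43.5, 4.31 and 3.19 in the chosen cells and 32.4, 2.80 and 3.39 in the other CD45+ cells, so its early level was high in both. As a whole, 18.9% of the genes called higher and 19.2% of those called lower at the medium stage differed 2-fold or more in the same direction in the other CD45+ cells, and 12.1% and 22.1% at the late stage.

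The chosen cells differed among themselves along the strength of their markers. With cells thinned to 1000 UMIs and binned by UMIs of the 3 marker genes, the summed class II level of early cells was 3364 CPM at 4 or fewer marker UMIs, 2469 at 5 to 7, 1920 at 8 to 11 and 1249 at 12 or more. Late cells went from 813 through 560 and 348 to 194. Medium cells, at 19760, 20525, 20021 and 15757, held high class II in every bin, the last of only 38 cells. Sall1 went the other way, from 169 through 216 and 239.9 to 294 in early cells and from 203 through 238 and 368 to 402 in late cells. Il1b was lower where markers were strong at each stage, with 1646 in the first bin and 706 in the last in early cells, 1968 and 564 in medium cells and 1748 and 549 in late cells. Cxcl13 in late cells was 1664, 422, 76.0 and 100.4 over the bins, so its level was highest by far where markers were weakest, near the edge of the rule. These bins use the rule's own genes and are a description only.

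Cells with the same markers that the rule left out showed where the chosen cells stood. The 419 cells with at least 5 marker UMIs and 2 or more disease-associated UMIs, within the same limits on Mki67, Top2a and border macrophage genes, held 9031, 24162 and 8069 CPM of the 4 class II genes, and the 165 cycling cells within the border macrophage limit 5874, 15142 and 3843. The chosen cells held 2473, 19838 and 558, so the medium sample was the highest and the late sample the lowest in all 3 kinds of cell. The summed level of Fos, Jun, Egr1 and Ier2 was 6973, 7125 and 11044 in the chosen cells, 6507, 2485 and 5078 in the disease-associated cells and 5273, 3761 and 4615 in the cycling cells. The late level was thus above the early one in the chosen cells and below it in both other kinds, whose cells were few. For the class I genes the disease-associated cells followed the chosen cells, at 7987, 15782 and 3681. In the CD45- cells that met the rule, the same sums were 7282, 11213 and 1994 for class I and 6837, 7960 and 8818 for the immediate-early genes, the same order of stages as in the CD45+ sort.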

How the data were processed

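Per the labels and methods, sorted cells were encapsulated on inDrop, and the authors aligned reads with RapMap in bcbio-nextgen to the GRCm38 transcriptome (mm10 per the submitters' processing notes). The values deposited are UMI counts for every gene in every cell, not scaled in any way, and a deposited annotation of the libraries (unit: other) gives their run, sort and stage as text. Removal of ambient RNA and doublets is described in the methods, but whether it came before the table is not given in the sources used here, and both were treated as possibly present. All cell columns were matched to a library and 0 were left over. Of 50262 genes, 50150 had a symbol.

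UMIs were summed over the chosen cells of a stage or library and divided by all their UMIs. This share times 1000000 is the CPM. Log2 ratios used a prior of 0.5 UMIs on average, scaled to each stage's total, a minimum of 30 UMIs over the 2 stages and a 2-fold threshold, with conditional exact 95% intervals for counting error only. Reads sharing a UMI are 1 molecule, but libraries of 1 sample are not independent animals. Doublets were scored with Scrublet in scanpy 1.11.5 on 11110 cells. It called 33 (0.297%), too few to count as having worked, so doublets were kept and the 5% with the highest scores were removed only as an alternative. TMM factors came from edgeR 4.0.16 in R 4.3.3, for scaling only. Python 3.11.15 and scipy 1.17.1 were used elsewhere. The sums and ratios were tested on simulated data.

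The named genes were the 12 with the largest ratio in each direction past 2-fold, with the same sign in every run with at least 50 chosen cells in both stages and an interval excluding 1. Rule genes, markers of other cells, sex-linked, mitochondrial, immunoglobulin and T cell receptor genes and predicted models were left out, and genes of the lists were named as examples. A few genes and 1 allele of the mice are not reported here. The cells and gene lists were chosen with earlier results of these data known. Alternatives changed the marker threshold, the disease-associated limit, the cell limits, depth (thinning to 1000 UMIs), the gene minimum, the prior, the scaling, the weight of cells, the run and the libraries included.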

Additional observations from a re-analysis of the deposited data

Results flagged for a closer look

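Among 82 groups of 4 libraries examined, each early or medium value of a gene list or cell measure, 12 had 1 library far from the other 3. The limit used is passed by about 1 in 20 independent groups of equally precise values, and these groups were neither. They reuse the same libraries. Early library 1 held 86 chosen cells against 1025 to 1212 in the other early libraries, and medium library 1 held 86 against 118 to 241. Early library 1 was the highest early library in the summed level of neutrophil genes (8202 CPM, the others 306 to 393), of oligodendrocyte genes (2678, the others 182 to 337), of monocyte and macrophage genes (820, the others 304 to 336), of the class II list (10346, the others 8702 to 8924), of growth factors (1219, the others 954 to 988) and of glycolysis and hypoxia genes (2855, the others 2426 to 2462). Early library 4 was the highest early library in B cell genes, at 1061 against 313 to 430, and medium library 3 the highest medium one, at 3325 against 482 to 588. Medium library 1 was the highest medium library in the class II list (32572 against 26739 to 27081), in complement genes (17132 against 14592 to 14916) and in glioma progenitor genes (61.1 against 21.2 to 23.4). Medium library 4 was the lowest medium library in disease-associated genes outside the rule, at 25776 against 28209 to 28603. Most of the early sum of the class II list came from genes other than Cd74, H2-Aa, H2-Ab1 and H2-Eb1.

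The CD45- sort, which the stage comparisons did not use, also held cells that met the rule. They were 7.43% of early, 2.97% of medium and 1.30% of late CD45- cells (exact binomial 95% intervals 6.48 to 8.47, 2.20 to 3.92 and 0.882 to 1.86).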

How the results depend on the processing

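No paired analysis was possible because each stage was 1 tumor sample and no test was run between stages; values within each sequencing run stand in its place. Of 1390 alternative values of 66 results, 1241 moved by less than the spread between libraries, 141 moved by more and 8 turned in direction from a median larger than that spread, and the cause was not tested for any. In all, 110 list medians changed sign, the others from a value within the spread. For counts of genes the limit was 1.5 times. Settings were chosen with earlier results known, and leaving out early library 1 and medium libraries 3 and 4 was chosen after seeing the data. The medium and late samples held few UMIs. At the medium stage the counting interval excluded 1 for 320 of 365 genes called higher and 448 of 859 called lower. At the late stage it excluded 1 for 368 of 404 called higher and 255 of 426 called lower. The intervals of the other called genes included 1, so their calls lie within counting error. Any further part of the low totals in these counts was not tested.

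The share of cells was 72.1% early and 19.01% medium with a marker minimum of 3 UMIs, 54.3% and 10.4% with a minimum of 8, and 49.9% and 10.0% after thinning to 1000 UMIs. It was 13.3% at the medium stage with no disease-associated UMI allowed. Within run 1 it was 60.1%, 12.5% and 11.1% at the early, medium and late stages.

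Counts of called genes at the medium stage, 365 higher and 859 lower, became 881 and 1745 with a gene minimum of 10 UMIs, 113 and 227 with 100, and 154 and 135 within run 1. Thinning gave 234 higher, run 3 alone 1737 lower, and leaving out the 3 libraries 1330 lower. At the late stage, 404 higher and 426 lower became 981 and 1101 with a minimum of 10 and 95 and 113 with 100. TMM scaling gave 258 higher, and leaving out 1 library at a time gave 306 to 1175 lower, the highest without late library 4 and 680 without late library 3.

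Medium over early, the identity median of -0.18 was -0.10 with no disease-associated UMI allowed, -0.13 as a mean over cells, -0.060 in run 1 and -0.13 in run 3. In run 1 the immediate-early median was -0.51 and the inflammatory median -0.53. The disease-associated median of 0.29 was 0.058 after thinning, 0.13 without genes over 5 times higher in other CD45+ cells, 0.10 in run 1 and 0.14 to 0.35 with 1 library left out, lowest without medium library 2. The type I interferon count of 13 was 7 with a gene minimum of 100, 6 without genes over 5 times higher in other cells, 8 in run 2 and 6 in run 3, and its median was 1.58 with a minimum of 10 and 0.79 without those genes. The interferon gamma count of 8 was 5 with a marker minimum of 8 and without those genes, 3 after thinning and with a gene minimum of 100, and 2, 3 and 5 in runs 1, 2 and 3, with medians of 1.33 in run 1 and 0.49 in run 3. The class I median was 0.72 without the 3 libraries. The class II median was 2.28 with a gene minimum of 100 and 1.71 without those genes.

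Late over early, the identity median of -0.04 was -0.18 with TMM and 0.078 in run 3. The disease-associated median of 0.06 was -0.078 with TMM, -0.037 without genes over 5 times higher in other cells and -0.091 in run 3. The type I median of 0.02 was -0.19 with a marker minimum of 8, -0.20 after thinning and -0.19 with a gene minimum of 100. The interferon gamma count of 8 lower was 5 after thinning, 3 with a gene minimum of 100, 4 in run 2, 5 in run 3 and 5 to 10 with 1 library left out, lowest without early library 2. Its median of -1.21 was -0.71 without the highest doublet scores, -0.70 with a gene minimum of 100, -0.67 without genes over 5 times higher in other cells, -0.81 in run 2, -0.60 in run 3 and -1.45 to -0.66 with 1 library left out. The class I count of 4 was 2 in run 2 and 2 to 4 with 1 library left out, 2 without early library 4. Its median was -0.69 after thinning, -0.74 with TMM and -0.55 in run 3. The class II count of 6 was 0 without genes over 5 times higher in other cells, a limit that a low late level itself helps a gene to pass. Its median was -0.55 in that setting, -1.25 in run 3 and -1.19 to -0.85 with 1 library left out, lowest without early library 2.

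Of the 8 values that turned in direction, those at the medium stage were the purinergic list in run 3 (0.00042 against -0.25), the S and G2/M list with a gene minimum of 100 (-0.043 against 0.47) and nuclear oxidative phosphorylation in run 1 (-0.084 against 0.19). At the late stage they were the M1-like list after thinning (0.026 against -0.27), the lipid list without late library 3 (-0.024 to 0.23 with 1 library left out, against 0.17) and the chemokine receptor list, at 0.07, with a marker minimum of 8 (-0.035), TMM (-0.066) and in run 2 (-0.015).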
